A study of Mus musculus with 36 samples.

Results

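The 35 mitosis genes described here code for proteins that copy, align and part the chromosomes and then cut a cell into its daughters. They were taken by name from a list drawn up with earlier results of these data known, and all 35 were found among the 49585 features of the deposited tables. RNA came from whole bladder of C57BL/6 mice, all of them with both adrenal glands removed (bilateral adrenalectomy), so that no group kept its own adrenal source of corticosterone. One arm then received corticosterone (CORT, the main glucocorticoid hormone of mice), given in the animals' inactive phase per the labels, and the other arm received vehicle only; the labels give no dose, sex or age. The labels place 3 libraries of each arm at 4, 8, 12, 16, 20 and 24 h, 18 per arm in all, and do not define time zero. Animals with intact adrenal glands were not analysed here, so the vehicle arm is an arm without hormone, not a normal bladder.

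Dividing cells make most of these transcripts in a pulse that begins before mitosis, and the products are destroyed as the cell leaves it, so that a tissue's level of them follows how many of its cells are in cycle. The lining of the adult bladder, the urothelium, is known for very slow turnover at rest and fast division after injury. Glucocorticoids are known to hold back division in many tissues. In bulk RNA, fewer cycling cells and less transcript per cycling cell cannot be told apart.

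Values are normalized read signals on a scale common to the 36 libraries, where 100 units corresponded to between 68 and 152 reads, depending on the library (median 96.5). The mean total count was 11016413 in CORT and 10682675 in vehicle libraries. Reads of these genes were few: of 1260 values of the 35 genes, 16.0% stood for under 10 reads and 1 for no read, and 3 genes (Kif2c, Birc5 and Ttk) had a median of fewer than 10 reads. Uroplakin and smooth muscle genes showed bladder, with a mean of 15510 in CORT and 13930 in vehicle libraries for Upk1a of the umbrella cells and of 23135 in CORT and 23675 in vehicle libraries for Cnn1 of smooth muscle. The extraction text of the labels nevertheless describes blood with globin removal. The labels do not state that a group's 3 libraries are 3 animals; the spread behind every p-value is that between libraries and may include technical variation only. Of the libraries, 8 of replicate 2 carry another name in the authors' tables of selected genes over 18 libraries, and 4 of them change arm there. The full tables' names are used, and results are also given with the other names and without those 8 libraries.

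The sequence in front of these genes is shown because many of them share a pair of letter strings there. TTTGAA is the core of the cell cycle homology region, a site known in human and mouse cells for repressing these genes in resting cells and for raising them late in the cycle. CCAAT is the box known to bind the activator NF-Y. RefSeq windows on GRCm38.p6, running from 250 bases before to 50 after the transcription start, matched 28 of the 35 genes. Read on both strands, TTTGAA was present in 22 of these 28 genes (78.6%) and in 20.2% of the 27025 genes with a window, and CCAAT in 22 of 28 (78.6%) and 41.1%. Both strings were present in 19 of 28 (67.9%) and in 7.97% of all genes. In 20 of 28 (71.4%), against 5.72% of all genes, a TTTGAA began between 50 bases before and 50 after the start. The strings overlapped each other in 1 window of these genes. Of the matched genes, 6 held no TTTGAA (Nuf2, Nusap1, Bub1, Cenpe, Birc5 and Ccnb1) and 3 of those held no CCAAT either (Nuf2, Nusap1 and Birc5). A match of letters is not a site of binding, and no binding was measured here. Ccna2, Aurkb, Kif20a, Pbk, Tpx2, Fam64a and Foxm1 had no window.

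The following stretches run in the direction of transcription from 200 bases before to 30 after the start, with TTTGAA and CCAAT in capitals, also where they lie on the other strand and read TTCAAA and ATTGG. Mki67 (chr7:135716350-135716579, minus strand), Top2a (chr11:99024160-99024389, minus strand) and Cdk1 (chr10:69352883-69353112, minus strand) hold both strings. Ccnb1 (chr13:100786457-100786686, minus strand) holds CCAAT alone, and Birc5 (chr11:117849037-117849266, plus strand) neither.
Mki67: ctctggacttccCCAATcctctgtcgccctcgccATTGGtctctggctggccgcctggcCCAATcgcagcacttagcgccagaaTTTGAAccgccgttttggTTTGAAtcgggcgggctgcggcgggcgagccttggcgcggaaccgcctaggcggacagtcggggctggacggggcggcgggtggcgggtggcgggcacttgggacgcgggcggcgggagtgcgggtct
Top2a: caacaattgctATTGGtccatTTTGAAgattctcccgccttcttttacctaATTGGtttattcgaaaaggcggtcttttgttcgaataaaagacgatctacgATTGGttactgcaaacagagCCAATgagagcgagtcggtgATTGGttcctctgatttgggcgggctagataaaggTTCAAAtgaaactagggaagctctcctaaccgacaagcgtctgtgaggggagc
Cdk1: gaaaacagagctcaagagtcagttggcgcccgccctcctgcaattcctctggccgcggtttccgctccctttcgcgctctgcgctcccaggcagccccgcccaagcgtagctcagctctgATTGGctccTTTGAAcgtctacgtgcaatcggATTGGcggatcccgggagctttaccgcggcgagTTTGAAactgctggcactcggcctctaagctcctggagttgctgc
Ccnb1: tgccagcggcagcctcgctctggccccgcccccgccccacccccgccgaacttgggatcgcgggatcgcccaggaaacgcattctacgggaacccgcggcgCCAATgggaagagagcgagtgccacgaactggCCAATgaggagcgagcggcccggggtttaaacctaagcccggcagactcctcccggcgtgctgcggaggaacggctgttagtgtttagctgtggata
Birc5: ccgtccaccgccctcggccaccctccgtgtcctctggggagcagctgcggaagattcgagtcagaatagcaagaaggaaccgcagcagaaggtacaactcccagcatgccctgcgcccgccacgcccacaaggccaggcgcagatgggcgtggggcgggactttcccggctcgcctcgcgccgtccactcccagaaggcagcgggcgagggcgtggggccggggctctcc
The strings differ in number as well as in presence. Mki67 shows 2 TTTGAA and 3 CCAAT in this stretch, Top2a 2 and 5, and Cdk1 2 and 2.

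Mitosis genes were lower in the bladders of CORT mice than in those of vehicle mice. Averaged over the 6 times, 29 of the 35 fell and 0 rose (limma, adjusted p under 0.05 over 17867 features; 2.82% of all features fell and 1.29% rose), and the fold change of every one of the 35 was below 0. The median difference of the 35 was -0.71 on the log2(value + 1) scale, against 0.02 over all features, a scale that understates changes of scarce genes. Added up, the 35 genes reached 1141 ± 335 in CORT and 1954 ± 840 in vehicle libraries (SD, n = 18 each), 58.4% of the vehicle level. The sum ran from 697 to 1778 (median 1109) in CORT libraries and from 1113 to 4208 (median 1712) in vehicle libraries. The arms overlapped: 9 CORT libraries lay below the lowest vehicle library, and 2 lay above the vehicle median.

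**Figure D1:**
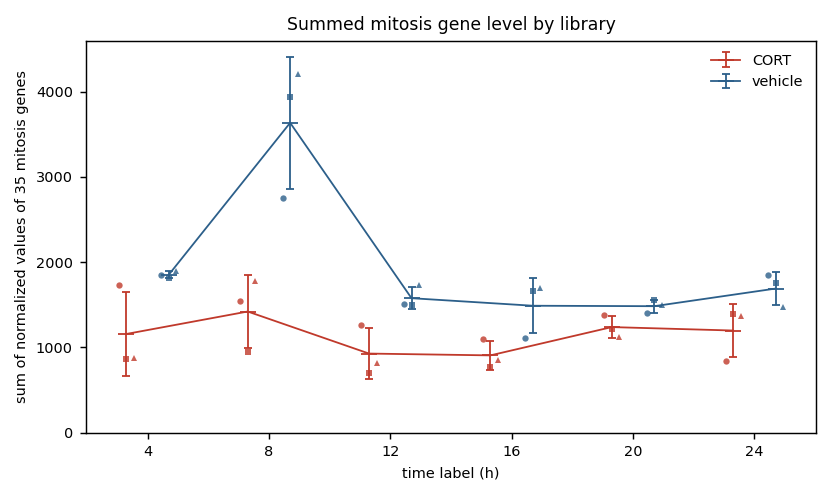
Sum of the normalized values of the 35 mitosis genes (y axis, linear from 0) in each of 36 libraries by time label in hours (x axis). Circles, squares and triangles are replicates 1, 2 and 3, and lines join group means with SD bars (n = 3). Vehicle libraries at 8 h reach 2754 to 4208, whereas CORT libraries at 8 h lie at 944 to 1778.

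The sums also show where single libraries stood apart. At 4 h the sum was 1731, 867 and 872 in CORT replicates 1, 2 and 3, and 1853, 1812 and 1891 in vehicle replicates 1, 2 and 3. CORT 4 h replicate 1 was the highest of its group in 31 of the 35 genes and its sum lay just below the lowest vehicle 4 h library. At 8 h the sum was 1539, 944 and 1778 in CORT and 2754, 3942 and 4208 in vehicle replicates 1, 2 and 3. Under the other naming the vehicle 8 h replicate 2 would be a library of sum 1212, the CORT 8 h replicate 2 one of sum 1552, and the library of sum 3942 would be vehicle 20 h replicate 2.

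Estimates were also lower within each replicate number, of which number 3 was registered later than the others. Replicate 1 libraries had 32 of 35 genes lower in CORT with a median of -0.42, replicate 2 libraries 35 with -0.99, and replicate 3 libraries 34 with -0.81. These values use the full tables' names. The replicate 2 value rests on them most, since all 8 libraries named in 2 ways are of replicate 2 and some change arm. Leaving out any 1 library left 24 to 31 genes called. The count rested on more than 1 replicate number: it was 29 without replicate 1, 0 without replicate 2 and 4 without replicate 3. It was 0 under the other naming (28 at an unadjusted p under 0.05, median -0.59), 1 without the 8 libraries named in 2 ways (median -0.56), and 5 without the 8 h libraries (median -0.59). Calls over all features changed in the same settings, from 734 of 17867 to 411, 1 and 29 without replicates 1, 2 and 3. They came to 0 under the other naming, 6 without the 8 libraries named in 2 ways and 23 without the 8 h libraries. In all 50 alternative settings the estimate of each of these genes tested was lower in CORT. These settings are not separate checks: 36 leave out 1 library each. The settings with a replicate block, an intensity trend, no filter or cosine terms leave the estimates as they were.

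Mki67 and Top2a are the usual markers of cycling cells. Mki67 (chr7:135689784-135716361, minus strand) codes for the Ki-67 antigen, which coats mitotic chromosomes. Its normalized value ran from 83.5 to 351 (median 172) in CORT libraries and from 146 to 864 (median 321) in vehicle libraries. The difference was -1.06 ± 0.16 (log2, SE; adjusted p = 0.00087), so that its transcript fell to 47.9% of the vehicle level (from the log2 difference). Top2a (chr11:98992943-99024189, minus strand), the topoisomerase that untangles sister DNA, ran from 50.1 to 221 (median 125) in CORT and from 102 to 554 (median 209) in vehicle libraries. It fell by 0.84 ± 0.14 (adjusted p = 0.0017). The arms overlapped for both markers when all times were pooled.

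At 8 h they did not overlap. Mki67 was 274, 117 and 351 in CORT replicates 1, 2 and 3, against 551, 745 and 864 in vehicle. Top2a was 134, 98.3 and 221 in CORT, against 331, 523 and 554 in vehicle. For both markers every vehicle 8 h library was above every CORT 8 h library. The log2 differences at 8 h were -1.65 ± 0.40 for Mki67 (adjusted p = 0.046) and -1.67 ± 0.35 for Top2a (adjusted p = 0.023).

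Cyclins switch on the kinase Cdk1, the engine of entry into mitosis, and all 4 genes of this group fell. Ccna2 (chr3:36564865-36572150, minus strand), the cyclin of DNA synthesis and of mitotic entry, had the smallest p of the 35 genes. It ran from 12.3 to 48.1 (median 22.9) in CORT and from 28.4 to 112 (median 43.8) in vehicle libraries, a difference of -0.95 ± 0.12 (adjusted p = 0.00010). At 8 h it was 37.3, 28.3 and 48.1 in CORT, against 62.7, 112 and 98.6 in vehicle. Ccna2 was also among the 3 genes of smallest p at 12, 16, 20 and 24 h, with -0.99, -1.21, -0.62 and -1.08 at those times, of which none passed the adjusted threshold.

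Ccnb1 (chr13:100778650-100786570, minus strand), the main mitotic partner of Cdk1, ran from 4.67 to 21.9 (median 12.5) in CORT and from 9.33 to 71.6 (median 19.8) in vehicle libraries and fell by 0.88 ± 0.16 (adjusted p = 0.0028). At 8 h it was 21.9, 14.2 and 16.0 in CORT, against 39.1, 42.6 and 71.6 in vehicle; the groups did not overlap, but this difference of -1.47 ± 0.39 had an adjusted p of 0.063. At 20 h the means stood in the other order, with Ccnb1 at 13.1 ± 1.7 in CORT and 10.75 ± 1.39 in vehicle (SD, n = 3 each). Cdk1 (chr10:69335146-69352938, minus strand) ran from 9.36 to 33.8 (median 22.8) in CORT and from 20.7 to 74.7 (median 33.6) in vehicle libraries and fell by 0.63 ± 0.13 (adjusted p = 0.0055). Its values at 8 h were 24.5, 29.4 and 22.0 in CORT, against 52.0, 70.1 and 74.7 in vehicle, a difference of -1.33 ± 0.31 (adjusted p = 0.040). Ccnb2, the other B-type cyclin, fell by 0.77 ± 0.22 (adjusted p = 0.042) but kept its call in only 16 of the 36 fits that left out 1 library.

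**Figure D2:**
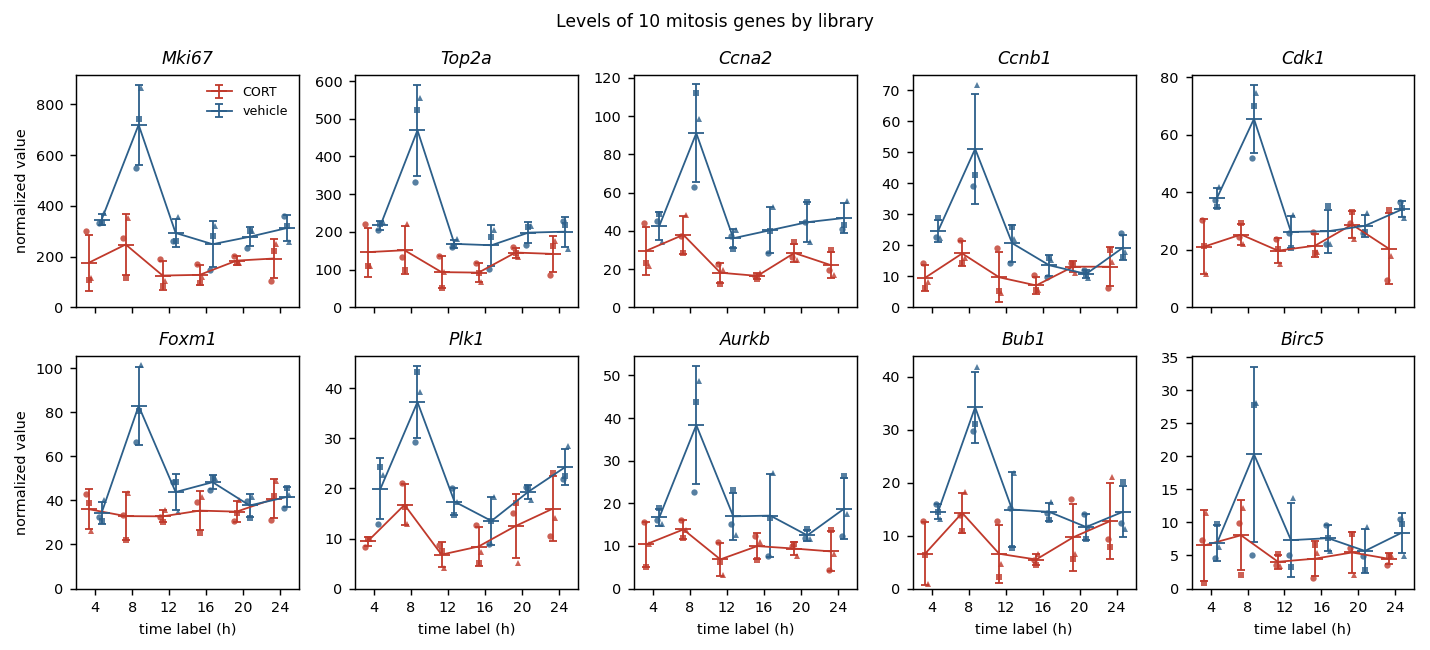
Normalized value (y axes, linear from 0) of 10 mitosis genes in each library by time label in hours (x axes), with circles, squares and triangles for replicates 1, 2 and 3 and lines through group means with SD bars (n = 3). The vehicle mean stands highest at 8 h in each panel, though 1 vehicle 8 h library of Birc5 lies at 5, and for Mki67 the vehicle 8 h libraries lie at 551 to 864 against 117 to 351 in CORT.

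Foxm1 (chr6:128362967-128376146, plus strand) is the transcription factor that drives late cell cycle genes. Like every gene of the 35 called at a single time, it passed that test at 8 h alone. It ran from 21.8 to 48.8 (median 34.8) in CORT and from 30.6 to 102 (median 43.4) in vehicle libraries, a mean difference of -0.39 ± 0.09 (adjusted p = 0.019). At 8 h it was 33.4, 21.8 and 43.3 in CORT, against 66.4, 80.5 and 102 in vehicle, and fell by 1.34 ± 0.23 (adjusted p = 0.0064). At 4 h it averaged 36 ± 8.93 in CORT and 34.4 ± 5.0 in vehicle (SD, n = 3 each), and at 24 h 40.7 ± 8.9 in CORT and 41.5 ± 4.4 in vehicle. Fam64a (also called Pimreg), a nuclear protein of dividing cells, had the lowest estimate of the 35 genes, a difference of -1.32 ± 0.27 (adjusted p = 0.0063); its mean was 6.85 ± 4.05 in CORT and 17.2 ± 10.1 in vehicle libraries (SD, n = 18 each), and 17 libraries held under 10 of its reads.

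Of the mitotic kinases, 3 of 5 fell. Plk1 (chr7:122159439-122169873, plus strand), which matures centrosomes and builds the spindle, ran from 4.03 to 23.1 (median 10.3) in CORT and from 8.81 to 43.2 (median 20.2) in vehicle libraries, a difference of -0.90 ± 0.15 (adjusted p = 0.0014). At 8 h Plk1 was 21.1, 16.3 and 12.8 in CORT, against 29.2, 43.2 and 39.4 in vehicle, which did not overlap, with an adjusted p of 0.12. Aurkb (chr11:69045647-69051664, plus strand) is the kinase that corrects faulty attachments of chromosomes to the spindle. It ran from 3.25 to 16.2 (median 10.4) in CORT and from 7.75 to 48.6 (median 16.2) in vehicle libraries and fell by 0.91 ± 0.17 (adjusted p = 0.0039). Its 8 h values were 16.2, 11.8 and 13.6 in CORT, against 22.7, 43.8 and 48.6 in vehicle, again apart, with an adjusted p of 0.12.

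Pbk, a kinase active in mitotic cells, also fell, with a difference of -1.17 ± 0.17 (adjusted p = 0.00037). At 8 h Pbk was 15.6, 5.08 and 17.7 in CORT, against 47.4, 59.8 and 50.4 in vehicle, and fell by 2.11 ± 0.40 (adjusted p = 0.013). Its difference at 16 h was as large, -2.11 ± 0.40, at means of 3.02 ± 1.82 in CORT and 15.9 ± 6.3 in vehicle (SD, n = 3 each), but had an adjusted p of 0.089. Ttk, a checkpoint kinase, had a difference of -0.58 ± 0.21 (adjusted p = 0.11), and Aurka, the kinase of the spindle poles, of -0.16 ± 0.10 (adjusted p = 0.39). Aurka averaged 26.6 ± 5.4 in CORT and 30.6 ± 9.9 in vehicle libraries (SD, n = 18 each), and was the estimate nearest to 0 among the 35 genes.

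All 6 genes of the kinetochore, the structure by which chromosomes hold the spindle, and of its checkpoint fell. Bub1 (chr2:127801122-127831865, minus strand), a checkpoint kinase, ran from 0.778 to 21.0 (median 7.25) in CORT and from 7.75 to 41.9 (median 14.3) in vehicle libraries and fell by 0.97 ± 0.22 (adjusted p = 0.014). At 8 h Bub1 was 13.8, 10.8 and 18.2 in CORT, against 29.7, 31.1 and 41.9 in vehicle; the groups were apart, with an adjusted p of 0.28. Nuf2 and Ndc80, neighbours in the complex that grips microtubules, fell by 1.09 ± 0.21 and 0.71 ± 0.18 (adjusted p = 0.0045 and 0.023). The large kinetochore protein Cenpf fell by 1.07 ± 0.19 and the kinetochore motor Cenpe by 0.76 ± 0.16 (adjusted p = 0.0021 and 0.0077). Bub1b, the checkpoint protein also called BubR1, fell least of these, by 0.44 ± 0.11 (adjusted p = 0.029). Its call was lost without vehicle 8 h replicate 3, vehicle 12 h replicate 3, vehicle 16 h replicate 2 or vehicle 20 h replicate 3.

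Both genes that open anaphase fell. Cdc20, the activator of the anaphase-promoting complex, averaged 22.1 ± 7.9 in CORT and 34.1 ± 16.4 in vehicle libraries (SD, n = 18 each), a difference of -0.57 ± 0.12 (adjusted p = 0.0085). Ube2c, the enzyme that supplies ubiquitin to that complex, fell by 0.86 ± 0.19 (adjusted p = 0.010), and its difference at 8 h was -2.001 ± 0.464 (adjusted p = 0.039).

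Neither of the chromosomal passengers, which ride with Aurkb, passed the test. Birc5 (survivin; chr11:117849251-117855743, plus strand) ran from 0.861 to 12.2 (median 5.17) in CORT and from 2.86 to 28.1 (median 6.96) in vehicle libraries, a difference of -0.61 ± 0.27 (adjusted p = 0.21). At 8 h it was 9.92, 2.06 and 12.2 in CORT, against 5, 27.8 and 28.1 in vehicle, so that vehicle replicate 1 lay among the CORT libraries. Fewer than 10 Birc5 reads stood behind 25 of the 36 values. Cdca8 (borealin) had a difference of -0.25 ± 0.13 (adjusted p = 0.26), at 18.5 ± 6.2 in CORT and 22.1 ± 7.1 in vehicle libraries (SD, n = 18 each).

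Of 6 spindle motors and microtubule proteins, 4 fell. Kif2c, a kinesin that takes microtubules apart, fell by 0.84 ± 0.15 (adjusted p = 0.0028), and Tpx2, which starts microtubules near chromosomes, by 0.83 ± 0.14 (adjusted p = 0.0018). Kif11, the motor that pushes the spindle poles apart, fell by 0.70 ± 0.14 (adjusted p = 0.0052). These 3 genes also fell at 8 h, with differences of -1.67 ± 0.37 (adjusted p = 0.032), -1.67 ± 0.34 (adjusted p = 0.022) and -1.48 ± 0.34 (adjusted p = 0.037). Kif4, a motor on chromosome arms, fell by 0.63 ± 0.17 (adjusted p = 0.033). The microtubule binders Hmmr and Nusap1 had differences of -0.70 ± 0.22 and -0.41 ± 0.14 (adjusted p = 0.063 and 0.10).

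All 6 genes of the spindle midzone and of cytokinesis, the final cut, fell. Prc1, which bundles the midzone microtubules, fell by 1.05 ± 0.15 (adjusted p = 0.00037) and had the smallest p of the 35 genes at 8 h. There it was 26.1, 10.3 and 28.9 in CORT, against 70.7, 132 and 116 in vehicle, a difference of -2.31 ± 0.36 (adjusted p = 0.0045). Anln, the scaffold of the contractile ring, fell by 0.45 ± 0.09 overall (adjusted p = 0.0046), and its difference at 8 h was -1.14 ± 0.22 (adjusted p = 0.012). The motor Kif20a fell by 0.58 ± 0.13 and Racgap1, which signals to the ring, by 0.63 ± 0.12 (adjusted p = 0.014 and 0.0043). Kif23, which forms centralspindlin with Racgap1, and Ect2, the activator of the ring's GTPase, fell by 0.31 ± 0.08 and 0.44 ± 0.12 (adjusted p = 0.038 and 0.034). Calls of Kif23, Ect2 and Kif4 were kept in 20, 23 and 24 of the 36 fits that left out 1 library.

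**Figure D3:**
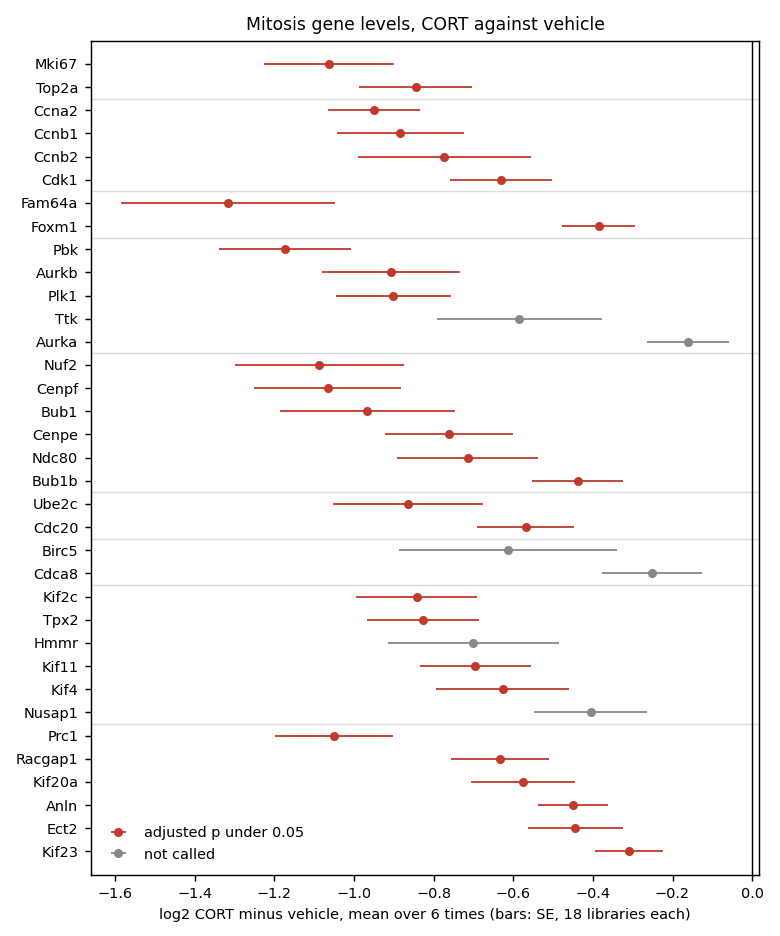
Difference in level between CORT and vehicle (log2, mean over the 6 times; x axis) of the 35 mitosis genes, grouped by role from markers at the top to cytokinesis genes at the bottom, with SE bars (18 libraries per arm). All 35 points lie left of 0, from -1.32 for Fam64a to -0.16 for Aurka, and the 6 in grey did not pass the adjusted threshold of 0.05.

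Some of these counts could hold reads of other genes. The pseudogenes Ccnb2-ps and Kif4-ps were listed at 0, while Ccna2, Cdc20, Kif20a, Kif4, Prc1, Nusap1, Ube2c, Plk1 and Cdca8 overlap an exon of a gene on the other strand, and no source used here says whether reads were counted by strand. Top2a and Foxm1 overlap an exon of another gene on their own strand (Gm23451 for Top2a, Gm44596 and Tex52 for Foxm1), which strand could not separate.

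Under the full tables' names, differences between the arms were largest at 8 h. There 13 of the 35 genes fell and 0 rose (0.66% of all features fell and 0.134% rose), and the median difference was -1.34 against 0.05 over all features. An unadjusted p under 0.05 was met by 32 of the 35 and by 2706 of 17867 features. In 28 genes all 3 CORT libraries lay below all 3 vehicle libraries, an ordering met by 10.6% of all features at that time. The 13 genes were Prc1, Foxm1, Anln, Pbk, Tpx2, Top2a, Kif2c, Ccna2, Kif11, Kif20a, Ube2c, Cdk1 and Mki67. The genes of largest p at 8 h were Ttk (-0.77 ± 0.51), Birc5 (-1.17 ± 0.67) and Aurka (-0.47 ± 0.25). The count dropped to 3 and 1 without CORT 8 h replicate 1 or 2 and to 2 and 1 without vehicle 8 h replicate 2 or 3. It came to 0 when the 8 libraries with 2 names were left out (17 at an unadjusted p under 0.05, median -1.09) and 0 under the other naming (5, median -0.59). Over all features 0 were called at 8 h in either setting, against 142 in the main fit. With those other names the median at 12 h, -0.80, was further from 0 than that at 8 h.

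At the other times no gene of the 35 passed the adjusted threshold of limma, although most estimates were lower in CORT. Shares of all features in brackets are at the adjusted threshold. An unadjusted p under 0.05 was met by 1233, 805 and 723 of 17867 features at 4, 12 and 16 h. At 4 h 34 estimates were lower, with a median of -0.76 and 18 genes at an unadjusted p under 0.05 (0.0504% of all features fell and 0.112% rose). The smallest p there were those of Ccnb1 (-1.35 ± 0.39), Fam64a (-1.98 ± 0.66) and Cdk1 (-0.92 ± 0.31), and the largest those of Birc5, Aurka and Foxm1. At 12 h all 35 were lower, with a median of -0.80 and 18 at that p (0.0392% fell, 0.0056% rose), led by Kif2c (-1.44 ± 0.37), Plk1 (-1.29 ± 0.36) and Ccna2, with Aurka, Ttk and Cdca8 of largest p. At 16 h all 35 were lower, with a median of -0.71 and 14 at that p (0.0112% fell, 0% rose), led by Pbk, Ccna2 and Ube2c (-1.63 ± 0.46), with Kif2c, Cdk1 and Ccnb2 of largest p. Without CORT 4 h replicate 1 the count at 4 h was 1, and without CORT 16 h replicate 1 or CORT 8 h replicate 2 the count at 16 h was 1. The 4 h difference rested on the names: under the other naming 18 estimates were lower and 17 higher, with a median of -0.00084 and 0 genes at an unadjusted p under 0.05. Without the 8 libraries with 2 names the median was -0.51 at 4 h and -0.43 at 16 h, with 4 genes at that p at each.

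Under the full tables' names the arms lay closest at 20 h. There 25 estimates were lower and 10 higher in CORT, with a median of -0.11. At an unadjusted p under 0.05 stood 2 genes (Ccna2 and Plk1, followed by Pbk), and Kif23, Birc5 and Cdk1 had the largest p. That unadjusted p was met by 1073 of 17867 features, a share close to that of the 35 genes. At the adjusted threshold 0% of all features fell or rose. Cdca8, Kif20a, Ect2, Ccnb1, Ube2c, Aurka, Ccnb2, Nusap1, Cenpe and Cdk1 were the 10 with a higher estimate, of at most 0.34. Under the other naming all 35 estimates at 20 h were lower, with a median of -0.75 and 11 genes at an unadjusted p under 0.05, and the arms lay closest at 4 h. Without the 8 libraries with 2 names the 20 h median was -0.13. At 24 h 34 were lower, with a median of -0.54 and 5 genes at an unadjusted p under 0.05, as were 1128 of 17867 features. At the adjusted threshold 0.0336% of all features fell and 0% rose. The 5 genes were led by Ccna2, Cdk1 (-0.88 ± 0.31) and Aurkb (-1.08 ± 0.42), and Ect2, Foxm1 and Kif23 had the largest p. All 3 CORT libraries lay below all 3 vehicle libraries in 12, 16, 12, 10 and 9 genes at 4, 12, 16, 20 and 24 h (6.29, 3.34, 3.24, 6.05 and 4.84% of all features), and in 0 genes above them at any of the 6 times.

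**Figure D4:**
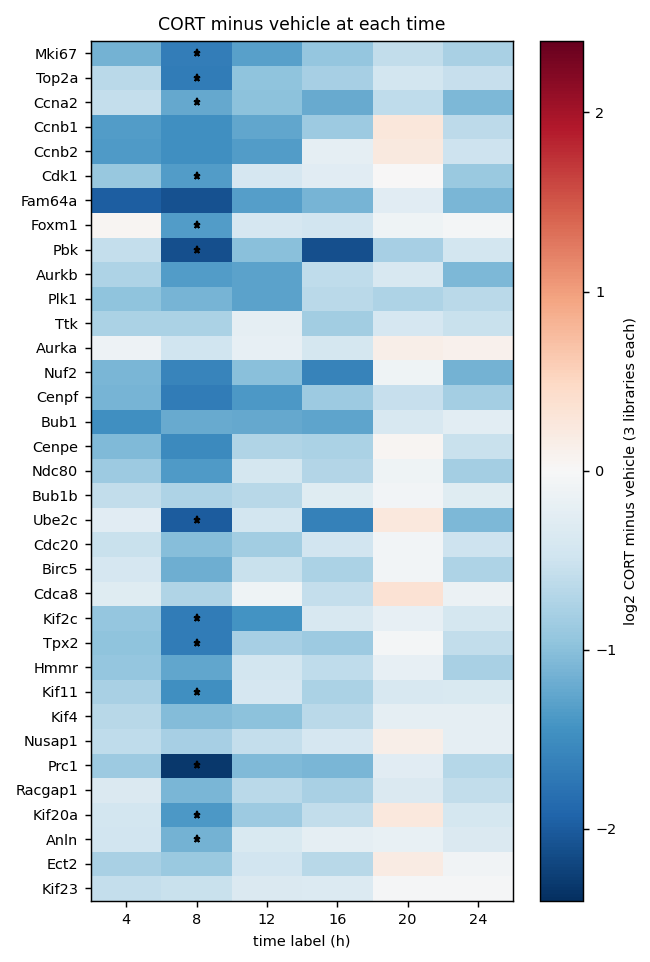
Difference between CORT and vehicle (log2, colour; blue is lower in CORT) of each of the 35 mitosis genes (rows, in the order of roles) at each time label in hours (columns; 3 libraries per arm), with a star where the adjusted p was under 0.05. All 13 stars stand at 8 h, where the median is -1.34, and the 20 h column is the palest, with a median of -0.11 (full tables' names; -0.75 with the other names).

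Whether the difference itself changed over the times was tested as an interaction of treatment with time, and 0 of the 35 genes passed it (limma; 0.134% of all features did). An unadjusted p under 0.05 was met by 8 genes and by 984 of 17867 features. The smallest p belonged to Foxm1, Prc1 and Ube2c (adjusted p = 0.35, 0.64 and 0.68) and the largest to Hmmr, Birc5 and Ttk. The larger difference at 8 h than at other times is therefore a description for any single gene.

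In the vehicle arm the mitosis genes shared a high point at 8 h. All 35 had their highest mean at that time, as did 13.3% of all features. In 26 of the 35, all 3 vehicle 8 h libraries exceeded the other 15 vehicle libraries, a pattern seen in 0.557% of all features. The vehicle 8 h level stood above the mean of the other vehicle times by 1.17 on the log2 scale in the median gene, and by 0.54 to 1.83 across the 35. The lowest vehicle mean fell at 20 h in 15 genes, at 16 h in 9 and at 12 h in 8. Under the other naming the highest vehicle mean was at 8 h in 30 genes, and in 0 did all 3 vehicle 8 h libraries exceed the rest. Without the 8 libraries with 2 names it was at 8 h in all 35, and in 26 the remaining vehicle 8 h libraries exceeded the other 12.

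A time effect of any shape in vehicle passed the test in 8 of the 35 genes (0.396% of all features), and 31 had an unadjusted p under 0.05 (2473 of 17945 features). The 8 were the kinetochore genes Cenpe and Cenpf, the midzone genes Prc1 and Kif20a, the cell cycle engine genes Ccnb1 and Cdk1, and Foxm1 and Pbk. Between their highest and lowest time means lay 2.28 for Pbk, 2.10 for Ccnb1, 1.87 for Cenpe, 1.85 for Cenpf, 1.81 for Prc1, 1.68 for Kif20a, 1.29 for Cdk1 and 1.23 for Foxm1 on the log2 scale (adjusted p = 0.012 to 0.045). Bub1b, Ttk and Birc5 had the largest p. The count was 0 without vehicle 8 h replicate 2 or 3. It was 5 without 4 h replicate 2, 5, 3 and 4 without 20 h replicates 1, 2 and 3, and 12 without 16 h replicate 3. It came to 0 when the 8 libraries with 2 names were left out (19 at an unadjusted p under 0.05), and 0 under the other naming (0 at that p). Over all features 5 and 1 were called in these settings, against 71 in the main fit.

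Fitted with a 24 h cosine, vehicle peaks of the 35 genes fell between 5.14 and 9.86 h (median 7.10 h), whereas 26.4% of all features had a fitted peak between 4 and 10 h. The median amplitude was 0.49 (log2, mean to peak), against 0.12 over all features. Of the 35 genes, 1 passed the rhythm test, Ccnb1, with an amplitude of 0.88 ± 0.13 and a peak at 7.04 ± 0.56 h (SE; adjusted p = 0.0088; 0.429% of all features passed). An unadjusted p under 0.05 was met by 23 of the 35 and by 2254 of 17945 features. Cenpf and Cenpe followed Ccnb1 with amplitudes of 0.66 ± 0.14 and 0.70 ± 0.15 (adjusted p = 0.078 and 0.084), and Ttk, Aurka and Birc5 had the largest p. The count was 2 without vehicle 4 h replicate 2, and 0 without any 1 replicate number, without the 8 libraries named in 2 ways, or under the other naming. Over all features the rhythm calls went from 77 to 19, 4 and 8 without replicates 1, 2 and 3. They came to 17 without the 8 libraries named in 2 ways and 0 under the other naming. A cosine describes a single sharp time point poorly, and 6 times over 1 day show no repeat of it.

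Under the full tables' names the high point in the CORT arm was lower and less shared. The highest mean was at 8 h in 22 genes, at 20 h in 10, at 24 h in Kif20a and Foxm1 and at 4 h in Anln. Under the other naming it was at 8 h in 27 genes in CORT and 30 in vehicle. Without the 8 libraries with 2 names it was at 8 h in 28 genes in CORT and 35 in vehicle. No gene passed the test for a time effect in CORT (0.0167% of all features; 2 genes, Pbk and Ccna2 had an unadjusted p under 0.05) or for a 24 h rhythm (0%; only Pbk had an unadjusted p under 0.05, with an amplitude of 0.75 ± 0.21). Kif23 for time and Ccna2 and Racgap1 for rhythm came next, and the largest p were those of Foxm1, Birc5 and Anln for time and of Ccnb2, Kif23 and Ube2c for rhythm. Under the other naming 6 genes for time and 8 for rhythm had an unadjusted p under 0.05 in CORT, against 0 and 0 in vehicle. With the full tables' names 1000 of 17921 features met that p for time in CORT, a share close to that of the 35 genes. For rhythm 1055 did, a larger share than that of the 35. The median fitted amplitude was 0.17 in CORT against 0.49 in vehicle, and 32 of the 35 genes had the smaller amplitude in CORT, with Ccna2, Pbk and Racgap1 the exceptions. The difference in rhythm itself passed the test in 0 of the 35 genes (0.106% of all features), with 9 at an unadjusted p under 0.05 (780 of 17867 features). Kif2c, Prc1 and Ccnb1 had the smallest p (adjusted p = 0.70, 0.90 and 0.96) and Ccna2, Birc5 and Ttk the largest. A loss of rhythm under CORT was therefore not shown for any single gene.

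**Figure D5:**
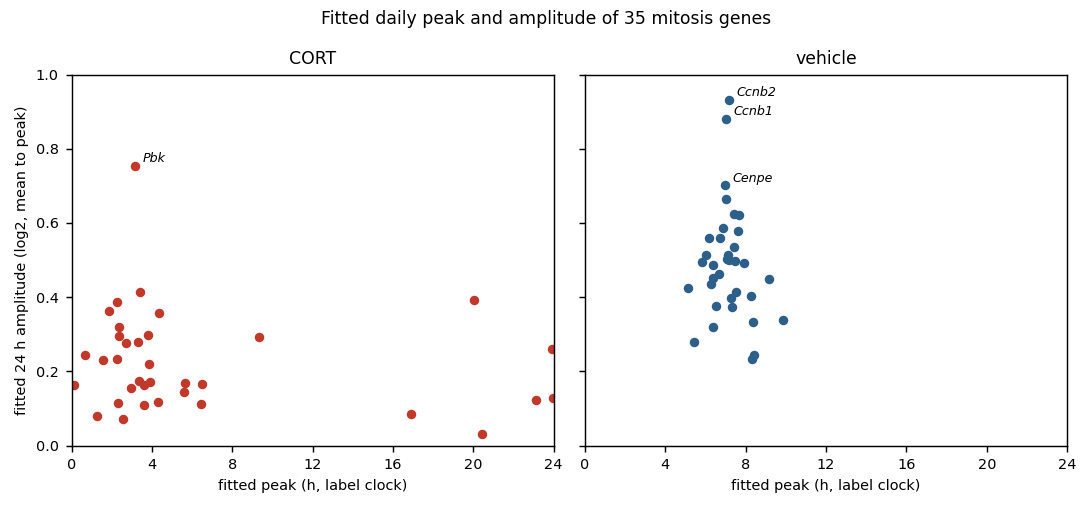
Fitted 24 h amplitude (log2, mean to peak; y axis) against fitted peak time in hours (x axis) of the 35 mitosis genes in CORT (left) and vehicle (right), each point a gene fitted over 18 libraries. Under the full tables' names, vehicle peaks gather between 5.14 and 9.86 h with a median amplitude of 0.49. CORT points have a median amplitude of 0.17 and scattered peak times that small amplitudes leave poorly fixed.

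The authors' deposited tables of selected genes hold some of these genes. Their vehicle table of 12 libraries holds 14 of the 35, namely Mki67, Top2a, Ccnb1, Cdk1, Bub1, Nuf2, Cenpf, Cenpe, Kif2c, Pbk, Tpx2, Nusap1, Ube2c and Foxm1. The authors' deposited CORT tables and their vehicle table of 18 libraries list 0 of the 35, and each lists fewer genes in all. Tables of 18 libraries also use the other replicate 2 names. The vehicle counts of 14 and 0 therefore differ in libraries and names and cannot be compared directly. All these tables of selected genes were made from these same libraries and are no separate evidence.

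Other genes of the division machinery, from a list of 53 not among the 35, also included many that fell. Of these, 18 fell and 0 rose, with a median of -0.40 (2.82% of all features fell and 1.29% rose). An unadjusted p under 0.05 was met by 36 of the 53 and by 3612 of 17867 features. Of those 36, Pttg1 alone was higher in CORT, by 0.20 ± 0.06 (limma, adjusted p = 0.064). Among the smallest p of the 53 were those of the kinetochore gene Knl1 (-0.82 ± 0.15) and of the spindle gene Ckap2l (-0.75 ± 0.14), and the largest were those of Kif18a, Cenpk and Cks2 (-0.04, -0.06 and 0.02). At 8 h 2 of the 53 fell, Ckap2l and Kifc1, with a median of -0.82 (0.66% of all features fell). Under the other naming 0 of all features were called for level or at 8 h, and so none of the 53. No test compared this list with the 35.

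Some genes of the steps before mitosis also fell, in a comparison where 2.82% of all features fell and 1.29% rose. Under the other naming 0 of all features were called for level. Of 38 DNA replication genes 7 fell and 0 rose, with a median of -0.14; Uhrf1, which carries DNA methylation through replication, fell by 0.72 ± 0.12 (adjusted p = 0.0017), Clspn by 0.81 ± 0.15 and the helicase subunit Mcm6 by 0.32 ± 0.07. The replication clamp Pcna averaged 403.0 ± 29.99 in CORT and 402.7 ± 46.7 in vehicle libraries (SD, n = 18 each), and it, Dut and Cdt1 had the largest p of that list. Of 17 G1 cyclin and E2F genes 3 fell, E2f1, E2f2 and E2f7 (-0.37 ± 0.09, -0.59 ± 0.14 and -0.92 ± 0.24), and Cdc25b, Cdk4 and Ccne1 had the largest p. Of 19 cell cycle inhibitors and genes of the DREAM repressor 0 passed the limma test (3 at an unadjusted p under 0.05, E2f5, Btg2 and Cdkn2c), with a median of 0.03, and E2f4, Cdkn2a and Lin9 had the largest p. An unadjusted p under 0.05 was met by 3612 of 17867 features.

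Markers of some cell types moved in the same direction as the mitosis genes. In the level comparison 2.82% of all features fell and 1.29% rose, and under the other naming 0 were called. All 6 endothelial markers fell, with a median of -0.42, and their summed level ran from 2198 to 3876 (median 3247) in CORT and from 2884 to 5661 (median 4419) in vehicle libraries; at 8 h it was 2198 to 3074 in CORT and 4621 to 4801 in vehicle. Of 6 fibroblast markers the collagens Col3a1, Col1a1 and Col1a2 fell, by 0.42 ± 0.08, 0.56 ± 0.12 and 0.35 ± 0.10. Pdgfra had an estimate of -0.18 ± 0.06 (limma, adjusted p = 0.071), and Dcn and Lum had estimates of 0.08 and 0.02. The sum of the 6 at 8 h, made up mostly of the collagens, was 117660 to 152940 in CORT and 202650 to 286200 in vehicle. Of 7 macrophage markers Cx3cr1 fell, and their sum ran from 4081 to 6049 in CORT and from 4009 to 6494 in vehicle libraries. None of the 5 basal and 5 umbrella urothelium, 6 smooth muscle, 8 T and NK cell, 5 B and plasma cell, 3 neutrophil and 9 erythroid markers tested passed in either direction (limma; 1, 2, 0, 0, 0, 0 and 0 at an unadjusted p under 0.05). That p was met by 3612 of 17867 features. The markers at that p, Trp63 of basal and Upk3a and Upk2 of umbrella cells, were higher in CORT. Their estimates were 0.20 ± 0.09, 0.25 ± 0.07 and 0.17 ± 0.08, with an adjusted p of 0.051 for Upk3a (limma). Median estimates were 0.04 for basal and 0.17 for umbrella urothelium and -0.01 for smooth muscle. They were -0.14 for T and NK cell, -0.06 for B and plasma cell, 0.05 for neutrophil and -0.12 for erythroid markers. Mzb1 of plasma cells and S100a8, S100a9, Ly6g and Elane of neutrophils were at 0 in over 50% of the libraries. The part of these cell types in the difference of the mitosis genes was not tested.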

How the data were processed

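Whole bladder RNA of 36 libraries was rRNA-depleted and made into directional libraries, per the labels' protocols. The submitters' processing notes name mm10 as build. The aligner is not given in the sources used here, nor the counting program or its strand setting. Genes carry a linear signal deposited by the authors: read counts that they quantile normalized over the 12 libraries of each table (every value is a multiple of 1/12). Their deposited tables of selected genes hold log2 values and were used for names and gene membership. A scale common to the 36 libraries was rebuilt by averaging the sorted values of the tables and ranking each library's features, and reads behind values up to 200 were counted from runs of tied features. All 156 value columns were matched by name; times of replicate 3 libraries were read from titles, since these libraries lack the time tag.

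Tests used limma 3.58.1 in R 4.3.3 on log2(value + 1), leaving out features at the lowest value in over 50% of libraries, with Benjamini-Hochberg adjustment over all features at 0.05. Level, single times and interaction came from 1 fit of 12 group means, rhythm from cosine and sine terms of 24 h. On simulated data only the level, vehicle rhythm and rhythm difference tests were tried. Alternatives changed the pseudocount, filter, scale, replicate block, variance model, library names and libraries kept. Per-library values are given for Mki67, Top2a, Ccna2, Ccnb1, Cdk1, Foxm1, Plk1, Aurkb, Bub1 and Birc5, chosen by role; the 3 genes of smallest and of largest p in each comparison are named, mostly by estimate or group mean. Times were also recounted under the other names, after the data were seen. One gene of another list that this rule names is not reported here. The 35 genes, the lists and the 8 h exclusion were chosen with earlier results of these data known, so no p over a list is given. Coordinates are from GENCODE M21 (GRCm38, the same assembly as mm10).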

Additional observations from a re-analysis of the deposited data

How the results depend on the processing

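Counts of mitosis genes called in the level comparison (29) held within 1.5 times in every setting run except those that changed which libraries entered: 0 with the other library names, 1 without the libraries named in 2 ways, 5 without the 8 h libraries (added after the data were seen), 24 to 31 without any 1 library and 0 to 29 without 1 replicate number. Calls over all features (734) also fell, to 0, 6 and 23 in the first settings named. The 8 h count (13) became 31 with limma array weights and 0 with the other names or without the libraries named in 2 ways, and ran from 1 to 15 without 1 library and 0 to 11 without 1 replicate number. Array weights called 12 genes at 4 h, 4 at 16 h, 1 at 24 h and 3 for the interaction, where the main fit called 0. Calls over all features rose with array weights too: from 734 to 3145 for level, 29 to 398 at 4 h and 142 to 975 at 8 h. They rose from 2 to 31 at 16 h, 6 to 206 at 24 h and 24 to 229 for the interaction. Without 1 replicate number the counts ran from 0 to 4 at 4 h, 0 to 2 at 12 h and 0 to 2 for the interaction; without 1 library they ran from 0 to 1 at 4 h and at 16 h. The vehicle time effect (8) became 32 with array weights and 0 with the other names, without the libraries named in 2 ways, without the 8 h libraries, or with replicates 1 and 2 on their own table's scale, and ran from 0 to 12 without 1 library and 0 to 7 without 1 replicate number. Over all features its calls went from 71 to 2972 with array weights. They became 1, 5, 35 and 0 in the other named settings, in the order given. The vehicle rhythm count (1) became 2 with a mean value of at least 10 or an intensity trend, 0 with the other names, without the libraries named in 2 ways or without the 8 h libraries, 1 to 2 without 1 library and 0 to 0 without 1 replicate number. Of single-gene estimates for level and at 8 h, Ttk at 8 h alone reversed, to 0.28 with the other names. With those names 17 of the 35 estimates at 4 h were higher in CORT, against 1 with the full tables' names, and the median was -0.00084 at 4 h and -0.75 at 20 h. The cause of these shifts was not tested. The log2 ratio of the summed level ran from -0.82 to -0.68 without 1 library and from -0.96 to -0.65 without 1 replicate number. Libraries of equal replicate number deviated together only weakly on average (mean correlation of deviations 0.0559 for equal and -0.0279 for other numbers, lowest equal pair -0.345). With a replicate block the counts were 29 for level, 14 at 8 h and 6 for time in vehicle. Calls over all features rose with that block, from 734 to 1240 for level, 142 to 262 at 8 h and 71 to 76 for time in vehicle. Depth limits Kif2c, Birc5 and Ttk most, whose median was under 10 reads.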

Other observations

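Features outside the lists whose values followed the mean of the 35 standardized mitosis genes most closely over the 36 libraries were the replication-dependent histones Hist1h1b (Pearson r = 0.87), Hist1h3b (0.83), Hist1h3c (0.79) and Hist1h1a (0.78), the Ras GTPase-binding protein gene Iqgap3 (0.87), the growth factor gene Clec11a (0.82), Pi16 (0.81), Arhgap11a (0.80), the matrix protein gene Sparc (0.79) and the lysosomal protease gene Lgmn (0.79). These correlations describe libraries that share arm and time, so no p is given. After group means were removed they ran from 0.43 for Hist1h3c to 0.76 for Pi16. Among the 35 genes themselves the correlation with their own mean ran from 0.58 for Aurka to 0.97 for Mki67 (median 0.87). Of these 10 features, Hist1h1b, Iqgap3, Clec11a, Pi16, Sparc, Lgmn, Hist1h3c and Hist1h1a fell in CORT against vehicle in the level comparison, with Hist1h3c at -0.93 ± 0.21 (log2, SE), Iqgap3 at -0.91 ± 0.17 and Hist1h1b at -0.82 ± 0.17. Over all features 2.82% fell there, and 0 were called under the other naming. The 10 features were picked for following a mean that was itself lower in CORT. Their fall is therefore largely set by that choice and is no separate evidence. Hist1h3b and Arhgap11a had estimates of -0.52 ± 0.17 and -0.24 ± 0.09 with adjusted p of 0.091 and 0.13.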
